A study of Rattus norvegicus with 20 samples.

Results

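The genes described here are 6 that are widely used as internal references when mRNA levels are compared, *Actb*, *Tbp*, *Ppia*, *Ywhaz*, *Gusb* and *Hprt1*. They were taken by symbol from a table of 23487 genes measured in INS-1 832/13 cells, an insulin-secreting line derived from a rat insulinoma that also carries the human proinsulin gene. Each of the 6 symbols matched 1 gene, and 5 of the 6 passed the filter on low values and were tested among 15802 genes. *Hprt1* was listed at 0 throughout and was not tested. The table held 20 mRNA libraries in 5 groups of 4. The groups were cells with siRNA against *Piezo1* (si-P1), against *Piezo2* (si-P2) or against both (si-P1+2), cells that received a non-targeting pool (si-Ctrl), and untransfected cells (Untr). Each siRNA was a commercial pool, with a stated concentration of 25 nM, and the sources used here do not say whether this was per pool or in total in si-P1+2. A repeat transfection followed 48 h after the first, and cells were used after another 48 h. With a single pool per channel gene, what the loss of that channel did and what else the pool did cannot be told apart, and all groups came from a single line. Nothing in the sources used here says that the replicates were separate cultures, so the p-values given here rest on differences among these libraries alone, and those may be technical.

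A reference gene serves as the denominator of a relative measurement, and a change of the denominator enters the ratio with the opposite sign. Such genes are chosen because nearly every cell uses their products. *Actb* encodes β-actin of the cytoskeleton, *Tbp* the TATA-binding protein that helps RNA polymerases find a start site, and *Ppia* cyclophilin A, a prolyl isomerase that binds cyclosporin. *Ywhaz* encodes 14-3-3ζ, which binds phosphorylated proteins, *Gusb* β-glucuronidase, a lysosomal enzyme that degrades glycosaminoglycans, and *Hprt1* the purine salvage enzyme hypoxanthine phosphoribosyltransferase. In the study, *Hprt1* served as the reference of its real-time PCR, which was not analysed here.

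Of the 5 genes tested, 3 passed the test in at least 1 comparison between groups and 2 did not pass any test. *Tbp* and *Actb* passed the test in none of 7 comparisons between groups. *Gusb* was 1.59-fold higher in si-P1 than in si-Ctrl and 1.42-fold higher in si-P1+2 than in si-Ctrl. *Ywhaz* was 1.19-fold higher and *Ppia* 0.777-fold (22.3% lower) in si-P1 than in si-Ctrl. These last 2 calls were each lost on leaving out some single libraries. *Ppia* also missed the threshold in the test of any difference among the 5 groups (adjusted p = 0.105, limma). Without si-Ctrl replicate 3 the log2 change was 0.18 for *Ywhaz* and −0.24 for *Ppia*, against 0.26 and −0.36 with it. In si-Ctrl all 5 were within 1.09-fold of their level in untransfected cells.

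Promoter windows are shown for *Gusb* and *Ppia*, which moved in opposite directions, and for *Tbp*, which did not pass the test. They run from 250 bases before to 50 bases after the gene start, are given 5′ to 3′ on the strand of the gene, and come from RefSeq on the rat build GRCr8. Of the 6 genes, 4 matched the table of promoters. Capitals mark TATAAA (the core of a TATA box), GGGCGG (a GC box) and CANNTG (an E box, where N is any base), each searched on both strands. The *Gusb* window is chr12:32337057-32337356, plus strand, the *Ppia* window chr14:85492966-85493265, plus strand, and the *Tbp* window chr1:65136458-65136757, plus strand.
Gusb: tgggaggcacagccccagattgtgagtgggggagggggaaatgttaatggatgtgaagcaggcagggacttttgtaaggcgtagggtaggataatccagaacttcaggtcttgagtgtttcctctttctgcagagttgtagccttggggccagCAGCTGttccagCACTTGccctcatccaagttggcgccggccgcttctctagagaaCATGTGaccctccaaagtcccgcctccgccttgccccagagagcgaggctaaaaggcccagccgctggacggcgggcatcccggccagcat
Ppia: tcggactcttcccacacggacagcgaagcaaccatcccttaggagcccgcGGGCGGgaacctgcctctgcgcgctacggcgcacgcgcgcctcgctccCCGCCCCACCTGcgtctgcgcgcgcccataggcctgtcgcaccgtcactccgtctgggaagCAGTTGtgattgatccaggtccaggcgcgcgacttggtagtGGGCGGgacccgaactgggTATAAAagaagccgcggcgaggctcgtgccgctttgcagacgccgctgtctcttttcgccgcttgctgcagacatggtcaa
Tbp: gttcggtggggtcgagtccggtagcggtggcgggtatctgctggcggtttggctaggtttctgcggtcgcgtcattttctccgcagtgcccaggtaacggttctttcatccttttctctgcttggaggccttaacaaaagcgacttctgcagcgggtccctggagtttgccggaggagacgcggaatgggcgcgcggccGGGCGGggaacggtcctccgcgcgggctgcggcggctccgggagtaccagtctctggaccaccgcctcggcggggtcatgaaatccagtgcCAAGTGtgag
The *Ppia* window held 1 TATAAA, which starts 31 bases before the gene start, and 3 GGGCGG, of which 1 lies on the opposite strand directly beside a CANNTG match. The *Gusb* window held neither of these 2 motifs and 3 CANNTG matches. The *Tbp* window held 1 GGGCGG, 1 CANNTG and no TATAAA. Of 33469 rat promoter windows of the same length, 14.2% held TATAAA, 33.1% GGGCGG and 72.1% CANNTG on either strand. Neither CCAAT nor CACGTG was in any of the 3 windows, and 37.5% and 6.42% of all windows held them. These matches describe the letters only.

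Recovered reads per library ranged from 16679934 to 56926609, and a deeper library has the smaller counting error for a given gene. One library stood apart. In si-Ctrl replicate 3 the median normalized count of the genes tested was 442, against 517 to 527 in the other libraries, and within its group it correlated less with its replicates (median 0.973, against at least 0.985 for every other library). Where it moved a value most, the value without it is given too. The targeted *Piezo1* mRNA was at 105 to 145 normalized counts in the libraries given its siRNA, against 271 to 386 in all others. *Piezo2* was at 3.71 to 16.3 normalized counts in libraries given its siRNA and at 6.72 to 16.3 in all others, and these ranges overlapped, so a loss of this mRNA could not be shown at this depth. All 12 markers of β-cell lines averaged at least 100 normalized counts, among them *Ins1*, *Pdx1* and *Slc2a2*, and 0 of 7 markers of stroma, vessels and immune cells did. The sum of those 7 was 9.30 to 20.9 normalized counts in the silenced groups, against 8.83 to 24.1 in si-Ctrl. Of 4 markers of other endocrine cells 1 averaged at least 100, as did 1 of 5 exocrine and duct markers. Their sums were 1461 to 3100 and 249 to 411 in the silenced groups, against 1477 to 3338 and 268 to 399 in si-Ctrl.

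*Gusb*, the lysosomal β-glucuronidase (ENSRNOG00000000913), showed the largest change of the 5. Its 4 si-P1 libraries held 3707, 4057, 3656 and 3860 normalized counts, against 2404, 2598, 2393 and 2227 in si-Ctrl. The si-P1+2 libraries held 3106, 3870, 3133 and 3570. In both comparisons every library given the *Piezo1* siRNA lay above every si-Ctrl library. The si-P2 libraries held 2797, 3240, 2619 and 2913, just above the si-Ctrl libraries with no overlap, and untransfected cells held 2329, 2779, 2421 and 2495, which overlapped si-Ctrl. *Gusb* rose by 0.67 on the log2 scale in si-P1 against si-Ctrl (limma, standard error 0.08, 95% confidence interval 0.50 to 0.84, adjusted p = 1.90e-05) and by 0.50 in si-P1+2 (standard error 0.08, adjusted p = 0.00099, limma). In si-P2 the difference of 0.26 missed the threshold (95% confidence interval 0.10 to 0.43, adjusted p = 0.0973, limma). With DESeq2 on the recovered reads it passed (0.27, adjusted p = 0.0381). In si-Ctrl against untransfected cells the difference was −0.06 (adjusted p = 0.767, limma).

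The comparison of the siRNAs with each other uses no si-Ctrl library for the difference. *Gusb* was higher by 0.40 in si-P1 than in si-P2 (standard error 0.08, adjusted p = 0.00199, limma), and the libraries did not overlap. Against untransfected cells in place of si-Ctrl it rose by 0.61 in si-P1 (adjusted p = 3.56e-05, limma) and by 0.45 in si-P1+2 (adjusted p = 0.00185, limma), and the difference of 0.21 in si-P2 missed the threshold (adjusted p = 0.287, limma). In si-P1+2 against si-P1 the difference was −0.16 (adjusted p = 0.851, limma), with overlapping libraries. In si-P1+2 against si-P2 it was 0.24 (adjusted p = 0.128, limma). The replicate numbers paired the libraries in that comparison, and with the replicate block the same difference of 0.24 passed the test (adjusted p = 0.00634, limma). Without si-Ctrl replicate 3 the change in si-P1 was 0.67, and *Gusb* passed the test in si-P1 and in si-P1+2 against si-Ctrl whichever of the 8 libraries of the comparison was left out. In a limma fit of the si-P1+2 and si-Ctrl groups alone the adjusted p was 0.0602, which misses the threshold.

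*Ppia*, cyclophilin A (ENSRNOG00000027864), was the only one of the 5 to be lower under silencing with the test passed. It held 43660, 47405, 42689 and 46309 normalized counts in si-P1, against 50262, 51788, 74972 and 57601 in si-Ctrl. All 4 si-P1 libraries lay below all 4 si-Ctrl libraries, and the highest si-Ctrl value was that of replicate 3, the library that stood apart. The si-P2 libraries held 51404, 48589, 44191 and 52370, the si-P1+2 libraries 48419, 50175, 44848 and 49132, and untransfected cells 46605, 52230, 53020 and 61094. *Ppia* fell by 0.36 on the log2 scale in si-P1 against si-Ctrl (standard error 0.11, 95% confidence interval −0.58 to −0.14, adjusted p = 0.0256, limma). Without si-Ctrl replicate 3 the fold change was −0.24 (adjusted p = 0.0378, limma). The call was lost on leaving out si-Ctrl replicate 4 (adjusted p = 0.0512, limma), si-P1 replicate 1 (0.0653) or si-P1 replicate 3 (0.0790). It was also lost against untransfected cells (−0.24, adjusted p = 0.133, limma) and in a limma fit of the si-P1 and si-Ctrl groups alone (adjusted p = 0.169).

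*Ppia* was at −0.24 in si-P2 (adjusted p = 0.213, limma) and −0.27 in si-P1+2 (adjusted p = 0.175, limma) against si-Ctrl, values that missed the threshold. They were −0.12 and −0.14 without si-Ctrl replicate 3. Rat cells have genes that resemble *Ppia* closely, and reads may be split among them. The table lists *Ppial4d* at 593 ± 195 normalized counts in si-P1 and 619 ± 236 in si-Ctrl (SD, n = 4), and *Ppial4g* at no more than 3.81 in any si-Ctrl or si-P1 library, both far below *Ppia* itself.

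*Ywhaz*, 14-3-3ζ (ENSRNOG00000008195), was higher in si-P1 than in si-Ctrl and than in si-P2. It held 20205, 18728, 20931 and 20380 normalized counts in si-P1, against 17287, 17077, 14389 and 18636 in si-Ctrl. The lowest si-P1 library lay just above the highest si-Ctrl library, and the lowest si-Ctrl value was again that of replicate 3. The si-P2 libraries held 16117, 16219, 16117 and 16284, with a coefficient of variation of 0.507%, the smallest among the 5 genes tested and their 5 groups. At the 12974 to 26085 reads of *Ywhaz* in these libraries, counting error alone is at least that large. The low value is therefore not read as a steadier gene. The si-P1+2 libraries held 18075, 17897, 18329 and 18764, and untransfected cells 14795, 16034, 15543 and 18093. *Ywhaz* rose by 0.26 in si-P1 against si-Ctrl (limma, standard error 0.07, 95% confidence interval 0.11 to 0.40, adjusted p = 0.0193). In si-P1 against si-P2 it was higher by 0.31 (standard error 0.07, adjusted p = 0.00566, limma), with no overlap of the libraries.

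In si-P2 against si-Ctrl *Ywhaz* was at −0.05 (adjusted p = 0.694, limma) and in si-P1+2 at 0.12 (adjusted p = 0.407, limma), or at −0.13 and 0.05 without si-Ctrl replicate 3, which also missed the threshold. Against untransfected cells its si-P1 difference was 0.32 (adjusted p = 0.00357, limma). Without si-Ctrl replicate 3 the change in si-P1 against si-Ctrl was 0.18 (adjusted p = 0.0246, limma). That call was lost without si-P1 replicate 3 (adjusted p = 0.0661, limma) or replicate 4 (0.0508), and in a fit of the si-P1 and si-Ctrl groups alone (0.175).

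*Actb*, β-actin (ENSRNOG00000034254), did not separate any pair of groups. It held 61635, 57522, 63447 and 57779 normalized counts in si-P1 and 68055, 56031, 61639 and 63156 in si-P2. The si-P1+2 libraries held 65600, 59617, 64912 and 59111. The si-Ctrl libraries held 60114, 50878, 62985 and 56174, and untransfected cells 61091, 55648, 61490 and 61364. Every pair of groups overlapped. The difference from si-Ctrl was 0.07 in si-P1 (limma, 95% confidence interval −0.09 to 0.22, adjusted p = 0.638), 0.11 in si-P2 (−0.04 to 0.27, adjusted p = 0.385) and 0.12 in si-P1+2 (−0.04 to 0.28, adjusted p = 0.47). These were 0.11, 0.16 and 0.16 without si-Ctrl replicate 3, all still short of the threshold. Leaving out 1 library at a time, the si-P1 difference ranged from 0.0085 to 0.11.

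*Tbp*, the TATA-binding protein (ENSRNOG00000001489), had the lowest level of the 5 and, in the 3 silenced groups against si-Ctrl, the smallest differences. It held 567, 640, 568 and 636 normalized counts in si-P1 and 604, 595, 635 and 610 in si-P2. In si-P1+2 it held 573, 571, 610 and 635. The si-Ctrl libraries held 583, 586, 581 and 642, and untransfected cells 548, 616, 637 and 716. The difference from si-Ctrl was 0.0095 in si-P1 (limma, 95% confidence interval −0.15 to 0.17, adjusted p = 0.957), 0.03 in si-P2 (−0.13 to 0.19, adjusted p = 0.832) and −0.0022 in si-P1+2 (−0.16 to 0.16, adjusted p = 0.992). Its sign changed between settings. The shallowest library held 298 reads of *Tbp*, where counting alone gives an SD of 0.08 on the log2 scale, and its SD within groups was 0.10.

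*Hprt1*, the purine salvage enzyme (ENSRNOG00000048561), was listed at 0 in all 20 libraries, as were 4799 genes in all. Other genes that nearly every cell uses were also listed at 0 in every library, among them *Actg1*, which encodes γ-actin, and *M6pr*, which encodes a mannose 6-phosphate receptor. An exact 0 can be a failed estimate, so no level and no floor can be read for *Hprt1* from these values. Its steadiness under the siRNAs was therefore not measured.

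**Figure D1:**
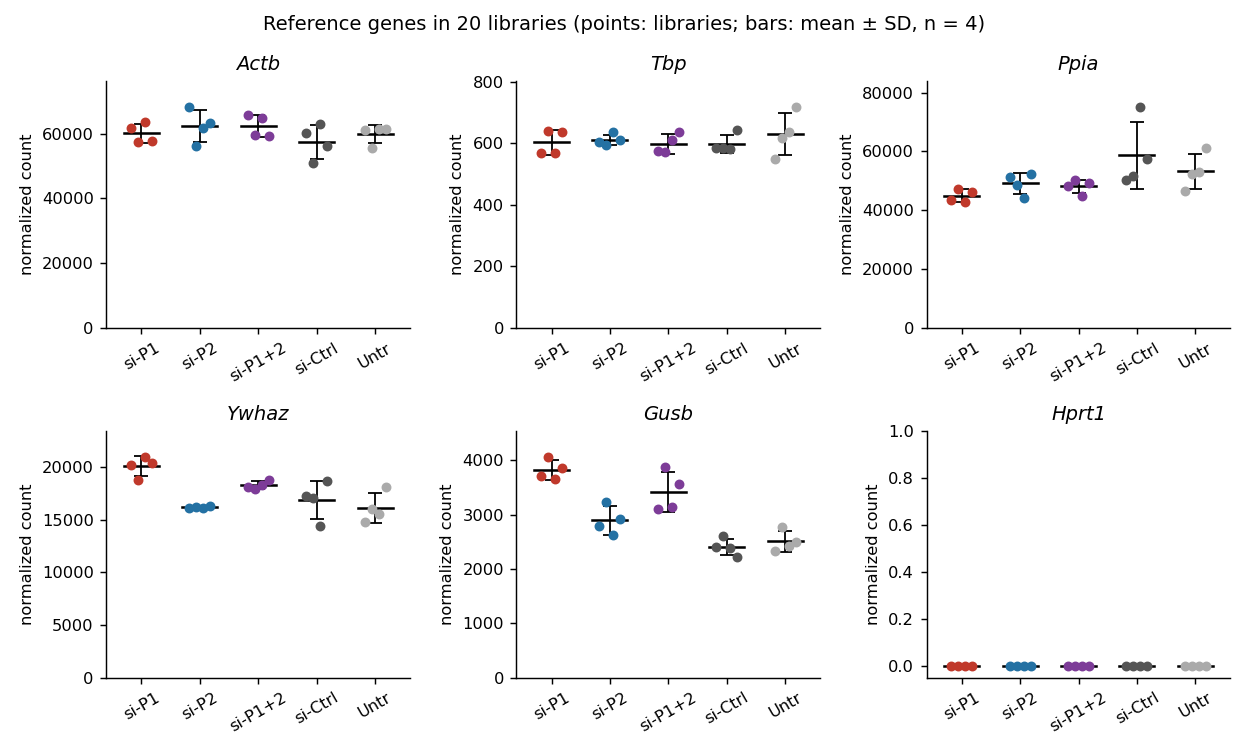
Normalized counts of the 6 reference genes in each of the 20 libraries (points, by group, with the mean and SD of 4 libraries as bars), on axes that start at 0 except for *Hprt1*, which is listed at 0 in every library. *Gusb* lies at 3656 to 4057 in si-P1, above its 2227 to 2598 in si-Ctrl, while *Tbp* and *Actb* overlap in every pair of groups.

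Counted over comparisons, 3 of the 5 genes passed the test in si-P1 against si-Ctrl, where 13.3% of all genes tested did (1117 of 2109 higher, or 1374 of 2115 with libraries scaled to equal totals). In si-P2 against si-Ctrl it was 0 of 5 (background 2.08%), with 2 of the 5 at an unadjusted p under 0.05, and in si-P1+2 against si-Ctrl 1 of 5 (background 4.76%). The counts were again 3, 0 and 1 of 5 without si-Ctrl replicate 3, beside backgrounds of 24.2%, 2.84% and 13.6%. In si-Ctrl against untransfected cells none of the 5 passed in limma, edgeR or DESeq2, and none had an unadjusted p under 0.05 in limma (background 0.0886%). Between silenced groups, 2 of 5 passed in si-P1 against si-P2 (background 14.7%), and 0 of 5 passed in si-P1+2 against si-P1 (background 0.0443%) and in si-P1+2 against si-P2 (background 2.5%). In these last comparisons 0 and 2 of the 5 had an unadjusted p under 0.05. In the test of any difference among the 5 groups, *Gusb* (adjusted p = 2.40e-05, limma) and *Ywhaz* (0.00982) passed, *Ppia* (0.105), *Actb* (0.681) and *Tbp* (0.921) did not, and 17.7% of all genes passed. With DESeq2, *Ppia* passed that test too (adjusted p = 0.0263). These comparisons share libraries, so their counts are not independent, and with 5 genes a share near the background says nothing about the set. The genes were also chosen with earlier results of these data known, so a share above the background is no test of the set.

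A gene that misses the threshold may still have changed, and the confidence interval shows by how much. For *Tbp* the 95% interval lay within ±0.25 on the log2 scale in 7 of 7 comparisons. For *Actb* it did in 5 of 7, and in all 7 it lay within ±0.5. *Ywhaz* stayed within ±0.25 in 2 and within ±0.5 in 7, *Ppia* in 1 and 6, and *Gusb* in 1 and 4. Over the 7 comparisons the fold change of *Tbp* ranged from 0.954 to 1.02, that of *Actb* from 0.958 to 1.09, and that of *Gusb* from 0.892 to 1.59.

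**Figure D2:**
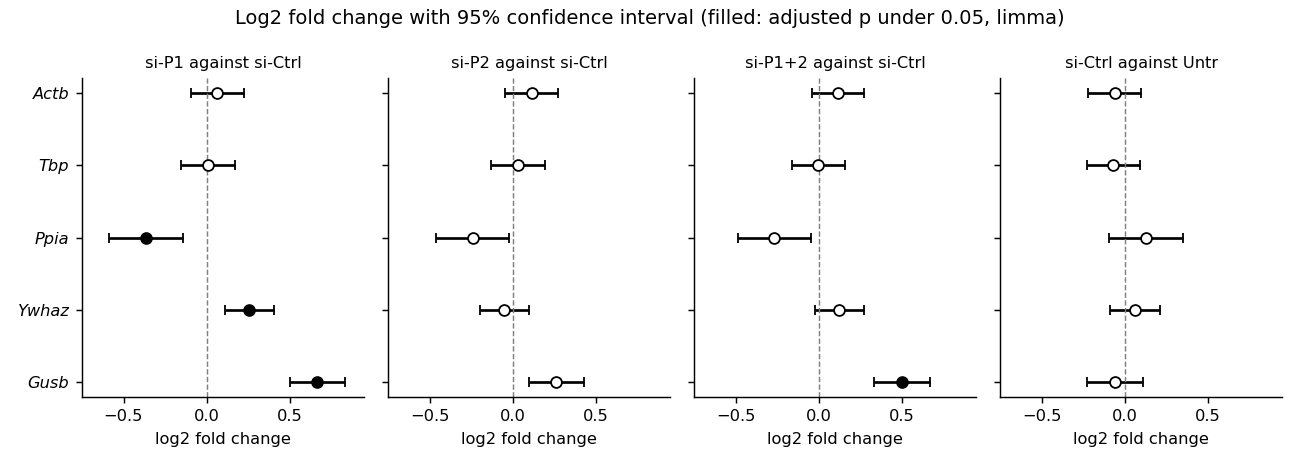
Log2 fold change (x axis) of the 5 genes tested in 4 comparisons, with 95% confidence intervals as bars and filled points where the adjusted p was under 0.05 (limma). *Gusb* is filled in si-P1 (0.67) and si-P1+2 (0.50), *Ywhaz* (0.26) and *Ppia* (−0.36) in si-P1 alone, and *Actb* and *Tbp* are open in each comparison drawn.

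Ratios of genes within a library do not depend on how that library was scaled. The log2 ratio of *Actb* to *Tbp* averaged 6.64 ± 0.17 in si-P1, 6.66 ± 0.11 in si-P2 and 6.70 ± 0.12 in si-P1+2, against 6.58 ± 0.16 in si-Ctrl (SD, n = 4 each), and the groups overlapped. This pair had the smallest SD over the 20 libraries of the 10 pairs, 0.14, but without si-Ctrl replicate 3 that of *Tbp* to *Ppia* was smaller (0.11, against 0.18 with it). The ratio of *Ppia* to *Gusb* had the largest, 0.41. It averaged 3.56 ± 0.02 in si-P1, 4.09 ± 0.13 in si-P2 and 3.82 ± 0.11 in si-P1+2, against 4.59 ± 0.30 in si-Ctrl. All 12 libraries of the silenced groups lay below all 4 si-Ctrl libraries for this pair. The si-P1 mean differed from that of si-Ctrl by −1.03 on the log2 scale, or by −0.91 without si-Ctrl replicate 3. That difference combines the changes of *Ppia* and *Gusb* given above, and it adds to the SD by which this pair was named. It is no separate check.

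*Tbp* differed by 0.0095 between si-P1 and si-Ctrl, so its ratio to another gene nearly repeats the change of that gene, with opposite sign. The ratios to *Tbp* are therefore no separate check. The log2 ratio of *Tbp* to *Gusb* averaged −2.66 ± 0.05 in si-P1 and −2.01 ± 0.15 in si-Ctrl, without overlap. The ratio of *Tbp* to *Ppia* averaged −6.22 ± 0.03 in si-P1 and −6.60 ± 0.28 in si-Ctrl, again without overlap, a difference of 0.37 that was 0.24 without si-Ctrl replicate 3. The ratio of *Tbp* to *Ywhaz* averaged −5.06 ± 0.15 in si-P1 and −4.81 ± 0.12 in si-Ctrl, with overlap. For *Ywhaz* and *Gusb*, which both rose in si-P1, the log2 ratio of *Ywhaz* to *Gusb* differed by −0.41 in si-P1 from si-Ctrl, without overlap. These differences are descriptions and were not tested.

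**Figure D3:**
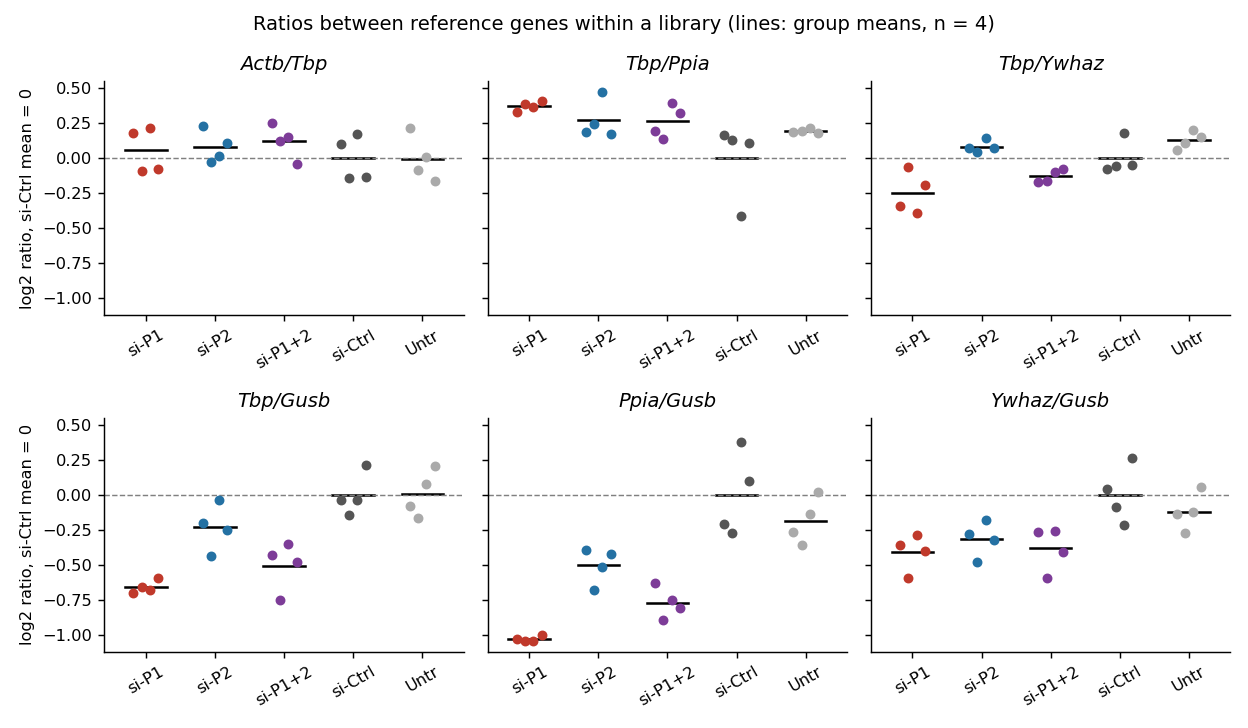
Log2 ratios of 6 pairs of reference genes in each library (y axis, set to 0 at the si-Ctrl mean), with a line at the mean of each group of 4. *Actb*/*Tbp* overlaps in all groups, while *Ppia*/*Gusb* in si-P1 lies at −1.03 from si-Ctrl.

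A common score of reference genes, M, is the mean SD over libraries of the log2 ratio of a gene to each of the others, so that a low M means a gene that moves with the rest. Among the 5, M was 0.20 for *Tbp*, 0.21 for *Actb*, 0.21 for *Ywhaz*, 0.28 for *Ppia* and 0.31 for *Gusb*. Without si-Ctrl replicate 3 the values were 0.18, 0.20, 0.19, 0.22 and 0.30, which puts *Ywhaz* before *Actb*. When the gene of the highest M was removed in steps, *Gusb* went first, *Ppia* next and *Ywhaz* after it, which left *Actb* and *Tbp*. That order rested on si-Ctrl replicate 3. Without it *Ywhaz* (0.18) and not *Ppia* (0.17) went second, *Actb* went after it, and *Tbp* and *Ppia* were left.

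The spread was also set beside that of 42 other genes in common use as references, a list written from general knowledge with earlier results of these data known. The SD of log2(normalized count + 1) over the 20 libraries was 0.09 for *Tbp*, 0.10 for *Actb*, 0.15 for *Ywhaz*, 0.19 for *Ppia* and 0.28 for *Gusb*, against a median of 0.23 over all genes tested. In the order of increasing SD these were 4, 5, 19, 36 and 45 of the 47 reference genes, or 10, 12, 33, 31 and 45 without si-Ctrl replicate 3. Spread depends on level, so each gene was also compared with the genes within 2-fold of its own mean. Of those, 4.61% had a smaller SD than *Tbp*, 9.80% than *Actb*, 45.4% than *Ywhaz*, 72.3% than *Ppia* and 90.9% than *Gusb*. Within groups the SD of *Gusb* was 0.11, close to that of *Tbp* (0.10) and *Actb* (0.10), and that of *Ppia* was the highest of the 5, 0.15. It was 0.11 without si-Ctrl replicate 3, and that of *Gusb* (0.12) was then the highest.

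Some of the other references varied less than any of the 5 genes tested. *Sdha*, a subunit of succinate dehydrogenase, had an SD of 0.04 over the 20 libraries. It averaged 5473 ± 103 normalized counts in si-P1 and 5363 ± 172 in si-Ctrl (SD, n = 4). *Nono*, an RNA-binding protein, was at 0.07. The retromer gene *Vps29* at 0.11 and the late endosomal GTPase gene *Rab7a* at 0.12 came next after *Tbp* and *Actb* over the 20 libraries. A small SD did not mean equal groups. *Rab7a* passed the test of any difference among the 5 groups (adjusted p = 0.00708, limma), with an SD within groups of 0.07. At the other end, *B2m*, the light chain of MHC class I, had an SD of 0.34. *Ldha*, a lactate dehydrogenase gene that β cells normally keep repressed, averaged 1.06 normalized counts and is no reference in this line.

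**Figure D4:**
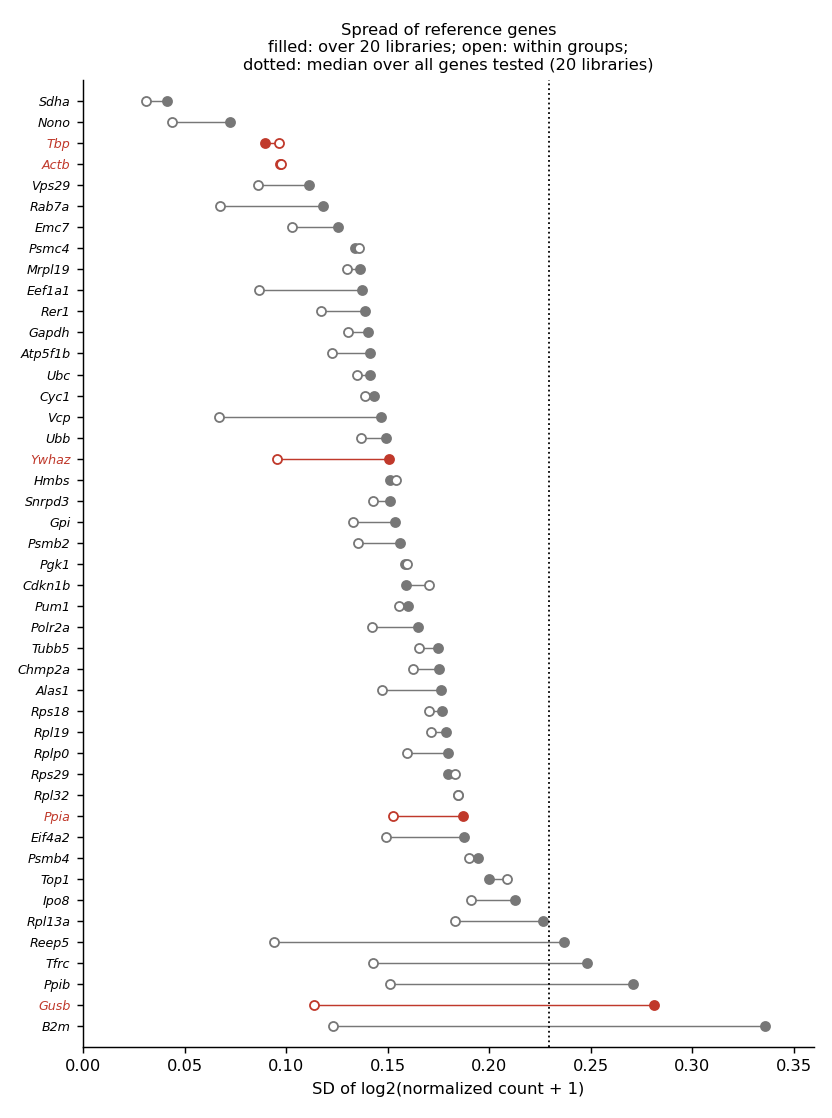
SD of log2(normalized count + 1) for 45 of the reference genes whose mean was at least 100 normalized counts, over the 20 libraries (filled) and within groups (open), with the members described here in red. *Tbp* (0.09) and *Actb* (0.10) lie near the low end, *Gusb* (0.28) near the high end, and the dotted line marks the median of all genes tested, 0.23.

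Of the 42 other references, 4 rose and 2 fell in si-P1 against si-Ctrl (14.3%, background 13.3%), 0 rose and 2 fell in si-P2 (4.76%, background 2.08%), and 2 rose and 1 fell in si-P1+2 (7.14%, background 4.76%). When si-Ctrl replicate 3 was left out, 7 rose and 6 fell in si-P1 (31%, background 24.2%), and 4 rose and 1 fell in si-P1+2 (11.9%, background 13.6%). Shares near the background are no result about these genes. Their median log2 fold change was −0.06 in si-P1 (all genes tested, 0.02), −0.17 in si-P2 (0.01) and −0.06 in si-P1+2 (0.02). Without si-Ctrl replicate 3 these medians were −0.003 (all genes tested, 0.003), −0.04 (0.001) and 0.03 (0.004), so the lower medians rested largely on that library. *B2m* rose by 0.66 in si-P1 (adjusted p = 3.90e-05, limma), and in the same comparison *Rpl13a*, a ribosomal protein gene, fell by 0.43 (0.0232) and *Tfrc*, the transferrin receptor, rose by 0.42 (0.00669). These last 2 were at −0.27 (adjusted p = 0.0229, limma) and 0.27 (0.000615) without si-Ctrl replicate 3. *B2m* and *Reep5*, which encodes a protein that shapes the endoplasmic reticulum, passed in 4 of the 7 comparisons each, more than any other reference. *Reep5* rose by 0.25 in si-P1 and fell by 0.35 in si-P2, each against si-Ctrl. For genes of the lists, the only alternative run was to leave out si-Ctrl replicate 3, chosen after seeing the data. The other genes of the lists named here as called in si-P1 against si-Ctrl kept that call in it, with changes that moved by less than 1.5 times.

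The genes that share a function with each of the 6 were counted in lists of the same kind. Among lysosomal glycosidases and glycosaminoglycan enzymes, the function of *Gusb*, 8 of 29 tested rose and 0 fell in si-P1 (27.6%, against the 13.3% called among all genes), with a median log2 fold change of 0.18 against 0.02 for all genes. In si-P2 1 rose (3.45%, background 2.08%), and in si-P1+2 3 rose (10.3%, background 4.76%). The list median was also higher there, 0.12 in si-P2 (all genes tested, 0.01) and 0.16 in si-P1+2 (0.02). Without si-Ctrl replicate 3 the list medians were 0.21 in si-P1, 0.13 in si-P2 and 0.16 in si-P1+2. In the fit without si-Ctrl replicate 3, 10 rose in si-P1 (34.5%, background 24.2%), 2 in si-P2 (6.90%, background 2.84%) and 7 in si-P1+2 (24.1%, background 13.6%). The sialidase gene *Neu1* rose by 0.65 in si-P1 (adjusted p = 2.41e-05, limma), the sulfatase gene *Galns* by 0.55 and *Gm2a*, the GM2 activator, by 0.49. *Neu1* held 2245 to 2508 normalized counts in si-P1, against 1312 to 1781 in si-Ctrl, without overlap, as for *Gusb*.

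Around *Ppia*, among 21 cyclophilins and FK506-binding proteins tested, 1 rose and 2 fell in si-P1 (14.3%, against 13.3% of all genes). *Ppib*, the cyclophilin of the endoplasmic reticulum, rose by 0.37 (adjusted p = 0.0198, limma), the direction opposite to *Ppia*, while *Fkbp4* fell by 0.37 and *Fkbp5*, another co-chaperone of HSP90, by 0.17. None of the 6 other 14-3-3 genes tested passed in any of the 7 comparisons, and *Ywhab* was at −0.04 and *Ywhae* at −0.16 in si-P1 (adjusted p = 0.663 and 0.128, limma). Among 29 actins and actin regulators tested, 1 rose and 3 fell in si-P1 (13.8%). The tropomyosin genes *Tpm2* and *Tpm3* fell by 0.84 and 0.33, and *Arpc2*, a subunit of the Arp2/3 complex, fell by 0.43. Among 29 subunits of TFIID and general transcription factors, 2 rose and 1 fell in si-P1 (10.3%). These were the TFIID subunits *Taf7* (0.31), *Taf9b* (0.28) and *Taf4b* (−0.52). Of 24 genes of purine salvage and synthesis, the pathway of *Hprt1*, 4 rose and 4 fell in si-P1 (33.3%). Among them were *Impdh2* (−0.43), *Prps2* (0.35) and *Pnp* (0.31). Of the same list 12.5% passed in si-P2 (background 2.08%) and 12.5% in si-P1+2 (background 4.76%). In the fit without si-Ctrl replicate 3, 24.2% of all genes passed in si-P1. The shares there were 38.1% of the cyclophilins and FK506-binding proteins and 31% of the actins and their regulators. They were 20.7% of the TFIID list and 37.5% of the purine list. In that fit 12.5% of the purine list passed in si-P2 (background 2.84%) and 20.8% in si-P1+2 (background 13.6%). Shares near the background say nothing about a list.

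For each gene tested, the genes whose log2 level varied most like it over the 20 libraries were sought among 10967 genes with a mean of at least 100 normalized counts. The libraries share their scaling and their groups, so these correlations describe likeness only. *Gusb* was most like *Cr1l*, a complement regulator (Pearson r = 0.95), *Ache*, acetylcholinesterase (0.92), and *Tmed10* (0.92), which all passed the test in si-P1 against si-Ctrl. *Ywhaz* was most like the melatonin receptor gene *Mtnr1a* (0.96), the ubiquitin ligase gene *Ube4b* (0.94) and *Rtn4* (0.91). *Ppia* was most like *Tomm22* (0.96), *Raly* (0.95) and *H2afy* (0.95), or 0.91, 0.90 and 0.90 without si-Ctrl replicate 3. *Actb* was most like *Id1* (0.84), *Rnls* (0.81) and *Id3* (0.80), and *Tbp* most like *Hmgb1* (0.81), *Ercc6l* (0.79) and *Smu1* (0.77).

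The choice of reference moves the size of a measured silencing. On the deposited scale *Piezo1* averaged 125 ± 13.2 normalized counts in si-P1, 348 ± 35.7 in si-P2 and 127 ± 15.4 in si-P1+2, against 313 ± 17.3 in si-Ctrl (SD, n = 4 each). As a geometric mean this left 39.8% of the si-Ctrl level in si-P1. Divided by *Tbp* in each library it left 39.6%, by *Actb* 38.1%, by *Ywhaz* 33.3%, by *Ppia* 51.3% and by *Gusb* 25.1%. In si-P1+2 the values were 40.7% on the deposited scale, 40.8% by *Tbp*, 37.5% by *Actb*, 37.4% by *Ywhaz*, 49.0% by *Ppia* and 28.7% by *Gusb*. On every one of these scales the *Piezo1* libraries of si-P1 and si-P1+2 lay below all si-Ctrl libraries.

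In si-P2, where *Piezo1* was not targeted, its level was 111% of si-Ctrl on the deposited scale, 108% by *Tbp*, 102% by *Actb*, 115% by *Ywhaz*, 131% by *Ppia* and 92.3% by *Gusb*, and the libraries overlapped si-Ctrl on every scale. The SD between si-Ctrl libraries of the log2 ratio was 0.34 by *Ppia*, 0.18 by *Actb*, 0.14 by *Ywhaz*, 0.12 by *Tbp* and 0.09 by *Gusb*, against 0.08 on the deposited scale. Division by *Ppia* gave 46.1% in si-P1 and 118% in si-P2 without si-Ctrl replicate 3. With the mean of *Actb* and *Tbp* as the reference, *Piezo1* was at 38.8% in si-P1, 105% in si-P2 and 39.1% in si-P1+2.

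**Figure D5:**
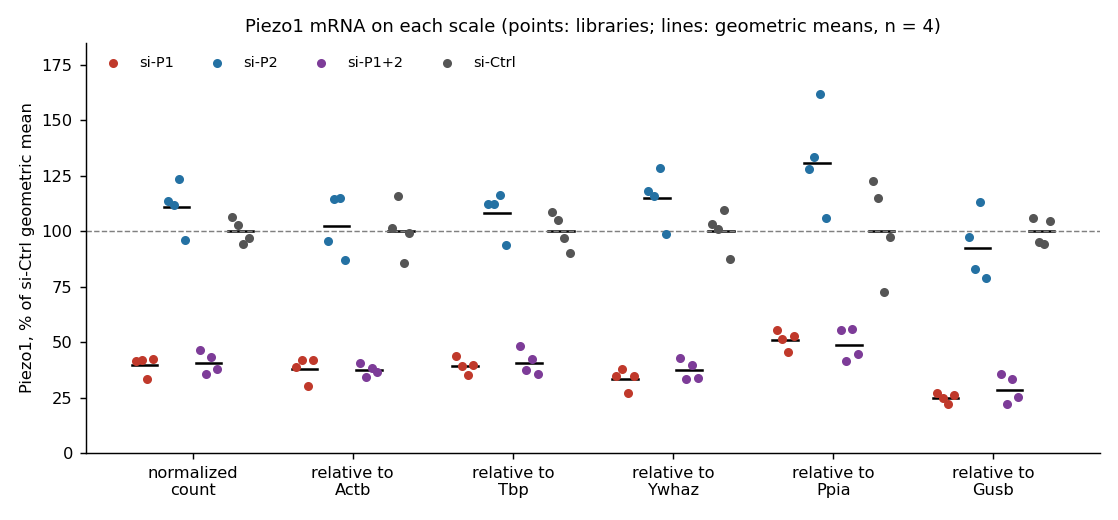
*Piezo1* mRNA in each library as a percentage of the si-Ctrl geometric mean (y axis), as deposited and divided by each of 5 reference genes, with a line at the geometric mean of each group of 4. The si-P1 mean is 39.8% as deposited, 51.3% by *Ppia* and 25.1% by *Gusb*, and in each case it lies below the si-Ctrl libraries.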

How the data were processed

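Poly(A) RNA of 20 libraries of INS-1 832/13 cells was sequenced after stranded library preparation. The values deposited by the authors are normalized counts per gene, a signal made from Salmon 0.14.0 estimates against Rnor_6.0 divided by DESeq2 1.25.10 size factors, after quality checks with FastQC 0.11.8 and MultiQC 1.7. All columns named a sample. Whole reads were recovered from the value of 1 read in each library, with 100% of values whole within 0.001. Reads ranged from 16679934 to 56926609 per library. For genes non-zero in at least 50% of libraries (15802 of 23487), log2(value + 1) was fitted in limma 3.58.1 (R 4.3.3) with 5 groups, 20 libraries, 15 residual degrees of freedom and a variance trend. Tests were two-sided, with Benjamini-Hochberg adjustment over all genes tested and a threshold of 0.05. Fold changes are on the log2(value + 1) scale. The script was tested on simulated data. Python 3.11.15 and pandas 2.3.3 served for spreads, ratios and M, which were not tested.

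The members and lists were chosen with earlier results of these data known. Named from each list were at most 3 called genes with the largest change in si-P1 against si-Ctrl, paralogs of the members, the 5 other references of smallest SD, those called in the most comparisons, and the 3 genes most correlated with each member. Some items that this rule names are not reported here. Alternatives covered pseudocount, filter, scaling, variance trend, edgeR 4.0.16 and DESeq2 1.42.0 on recovered reads, fits of 2 groups, the replicate block, untransfected controls and leaving out each library. For genes of the lists, for the order by SD and for M, the values without si-Ctrl replicate 3 were added after seeing the data. Replicate numbers come from the labels and name no shared culture or day. Over 11698 genes, deviations of same-numbered libraries correlated above 0.1 in 4 of 4 pairs in 5 comparisons, at 0.11 to 0.56 in si-P1 against si-Ctrl. They did so in 3 of 4 pairs in si-P2 against si-Ctrl (−0.17 to 0.36) and in 2 of 4 in si-P1+2 against si-Ctrl (−0.03 to 0.45), where the numbers were not taken as pairs. No pair of replicates agreed within sampling noise.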

Additional observations from a re-analysis of the deposited data

Results flagged for a closer look

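Of 25 sets of 4 libraries (5 genes in 5 groups), 2 held a library whose gap to the nearest other was large for the range of its group, and chance gives about 1 in 20 such sets. *Actb* was at 55648 normalized counts in untransfected replicate 2, against 61091 to 61490 in the other untransfected libraries, a gap of 0.932 of the range. *Tbp* was at 642 normalized counts in si-Ctrl replicate 4, against 581 to 586 in the other si-Ctrl libraries, a gap of 0.928 of the range.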

How the results depend on the processing

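The calls of *Gusb* in si-P1 against si-Ctrl, and of *Gusb* and *Ywhaz* in si-P1 against si-P2, were kept in every alternative run. With only 2 groups in the fit, 1 member was called in si-P1 against si-Ctrl (*Ppia* −0.36, adjusted p = 0.169, and *Ywhaz* 0.26, 0.175, lost in limma), 0 in si-P1+2 against si-Ctrl (*Gusb* 0.50, 0.0602) and 1 in si-P1+2 against si-P2 (*Ywhaz* 0.17, 0.0202). With the replicate block, 1 member was called in si-P2 against si-Ctrl (*Gusb* 0.26, adjusted p = 0.00395, limma), where the numbers did not pair, and 1 in si-P1+2 against si-P2 (*Gusb* 0.24, 0.00634), and the block changed no other call. DESeq2 called 1 member in si-P2 against si-Ctrl (*Gusb* 0.27, adjusted p = 0.0381). With quantile normalization 1 member was called among the 5 groups, and *Ywhaz* lost its call there (0.30, adjusted p = 0.0776, limma). Untransfected controls gave *Ppia* −0.24 in si-P1.

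Signs near 0 turned. Against si-Ctrl, *Tbp* in si-P1 was −0.0283 with quantile normalization and −0.0586 with untransfected controls, and in si-P2 −0.0147 and −0.0362. *Tbp* in si-P1+2 was 0.0281 with equal totals and 2.9e-05 with TMM factors. *Ywhaz* in si-P2 was 0.0144 with quantile normalization and 0.0101 with untransfected controls. *Actb* in si-P1+2 against si-P2 was −0.0089 with equal totals, −0.0616 with quantile normalization and −0.00032 with edgeR. Quantile normalization gave *Actb* −0.0143 and *Tbp* 0.00064 in si-P1+2 against si-P1. The cause of these changes was not tested.

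Leaving out 1 library at a time, *Ppia* in si-P1 against si-Ctrl ranged from −0.43 to −0.24, *Ywhaz* from 0.18 to 0.31, *Tbp* from −0.020 to 0.044, and the members called from 1 to 3. *Tbp* ranged from −0.032 to 0.032 in si-P1+2 against si-Ctrl, from −0.042 to 0.018 in si-P1+2 against si-P1 and from −0.052 to 0.0062 in si-P1 against si-P2. In si-P1+2 against si-P2, *Actb* ranged from −0.045 to 0.048 and *Ppia* from −0.078 to 0.0060. Over all genes, calls over the alternatives ranged from 593 to 3820 in si-P1 against si-Ctrl, from 5 to 1367 in si-P2 against si-Ctrl, from 69 to 2148 in si-P1+2 against si-Ctrl, from 0 to 207 in si-Ctrl against untransfected cells, from 1 to 93 in si-P1+2 against si-P1, from 146 to 1780 in si-P1+2 against si-P2, from 1556 to 4072 in si-P1 against si-P2 and from 2157 to 5382 among the 5 groups. With the replicate block, 3400 genes passed in si-P1 against si-Ctrl (2109 without it) and 3724 in si-P1 against si-P2 (2325 without it).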
